A study of Tribolium castaneum with 183 samples.

Results

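The genes described here are those of the red flour beetle, Tribolium castaneum, whose identifier begins with EMTCAG and whose level exceeded 0.5 cpm (counts of a gene per 1000000 counts of the library) in at least 5 females. They were chosen by identifier and by this level alone. The count table held 17078 genes, of which 537 carried an EMTCAG identifier and 16541 a TC identifier. Of the EMTCAG genes 45 passed the level, which was 8.38%, and of the TC genes 12068 passed, which was 73.0%. The 45 genes are called the EMTCAG genes in what follows, and the 12113 genes that passed are called the genes tested.

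RNA of whole, reproducing adult females of the strain Cro1, a laboratory-adapted strain collected from the wild, was sequenced with 1 library for each female. Full-sib families were split over 4 conditions from the egg on, which were Control (33 °C and 70% relative humidity, 47 females), Dry (33 °C and 30%, 48 females), Hot (37 °C and 70%, 45 females) and Hot-Dry (37 °C and 30%, 43 females). All 12 families stood in all 4 conditions with 3 or 4 females each, and the females of 1 family and condition grew up in 1 vial, so that the effect of a vial and a response particular to a family cannot be told apart. The labels give the age of the females as 8 weeks, the text of the study gives a higher age, and no comparison used it.

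Tribolium castaneum is a pest of stored grain and flour and a laboratory model among the beetles. It lives in dry food and takes up and retains water efficiently, and warm and dry surroundings are part of its ordinary range. TC identifiers are those of the gene models made for the genome of the beetle. Of the 537 EMTCAG identifiers 0 matched the RefSeq gene table of the species, and of the 16541 TC identifiers only 1 did. That table thus cannot set the EMTCAG genes apart from the others. The sources used here give no name, role, sequence, length or position for genes with an EMTCAG identifier. The genes are therefore described by identifier and value alone. A level in cpm is not per length, so levels are compared between females and not between genes, except as a measure of how many reads lay behind a gene.

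Library totals ran from 4873334 to 15533288 counts with a median of 8893820. At that median 3 counts, the floor used for a gene with no reads, were worth 0.337 cpm. Normalisation factors ran from 0.710 to 1.29. Extraction, library preparation and sequencing were randomised over treatments by the study, and the sequencing run of a library is not among the labels used here. Because whole bodies were sequenced, fewer cells of a type and less RNA in each cell cannot be told apart in any comparison below. P-values measure the spread among females, each of whom shared parents and a vial with the other females of her family and condition. The main tests of conditions had no term for family or vial and took the females as independent.

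Few reads lay behind most of the EMTCAG genes. Only 8 of the 45 had a mean of 1 cpm or more over all females, 37 lay below that, and 24 lay below the floor of 0.337 cpm. The median of their means was 0.322 cpm, against 19.9 cpm for the TC genes tested. Counting error therefore weighs on every value of the lower genes.

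The reads were gathered on a few genes. Of the 141985 counts that fell on the 45 genes in all females, EMTCAG00000000354 held 60.5%, and the 6 highest genes together held 83.7%. The share of all counts that fell on the 45 genes had a median of 79.7 cpm among Control females, 87.8 for Dry, 80.7 for Hot and 83.2 for Hot-Dry. Without EMTCAG00000000354 these medians were 30.1, 30.6, 30.6 and 30.8 cpm. The share of all 45 genes, most of which was EMTCAG00000000354, had means from 79.6 cpm in Control to 90.1 in Hot-Dry and was not tested.

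The highest gene, EMTCAG00000000354, also had the lowest coefficient of variation of the 45 genes, although EMTCAG00000000108 had the lowest dispersion. It ran from 25.5 over a median of 44.9 to 85.3 cpm among Control females, from 24.5 over 53.1 to 80.3 among Dry females, from 26.1 over 48 to 72.5 for Hot, and from 28.8 over 50.9 to 77.7 for Hot-Dry. The 4 ranges lay on top of each other. Its mean over all females was 50.9 ± 13.1 cpm (SD, all females). EMTCAG00000000084 followed at a mean of 6.28, EMTCAG00000000277 at 4.66, EMTCAG00000000108 at 3.23, EMTCAG00000000497 at 2.83 and EMTCAG00000000451 at 2.20 cpm. These 6 genes stood apart from the rest by the reads behind them. EMTCAG00000000047, EMTCAG00000000006, EMTCAG00000000260 and EMTCAG00000000255 had means of 1.18, 1.00, 0.918 and 0.736 cpm, and the lowest of the 45 genes, EMTCAG00000000176 and EMTCAG00000000093, had means of 0.107 cpm each.

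Reads of a gene were not found in every female. Only 5 of the 45 genes had at least 1 count in every female, and 6 genes had a median of 0 cpm. The share of females with at least 1 count had a median of 80.3% over the 45 genes and ran from 39.3% to 100%. For TC genes of the same mean level the median was 89.1%. These TC genes are the ones in the same classes of mean log2 cpm, 1 unit wide, weighted by the number of EMTCAG genes in each class. The 2 lowest classes, from -2 to 0 on the log2 scale, held 18 EMTCAG genes each, and 610 and 737 TC genes. The log2 cpm used a prior count of 2, which draws low values together. Genes down to a mean of 0.107 cpm therefore fell in the class from -2 to -1. Genes of that class can differ in mean cpm by more than 1 log2 unit, so the same level is approximate there. With at least 3 counts required, the medians were 44.8% for the EMTCAG genes and 53.6% for TC genes of the same level.

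The EMTCAG genes also had a higher median variation between females. The coefficient of variation of cpm had a median of 0.910, against 0.800 for TC genes of the same level. The square root of edgeR's dispersion, which is the variation between females once counting error is taken off, had a median of 0.617 against 0.477. The spread within the EMTCAG genes was wide, from 0.199 to 1.62, and the quartiles of the TC genes, 0.352 and 0.675, took in the median of the EMTCAG genes. These are descriptions with no test.

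**Figure D1:**
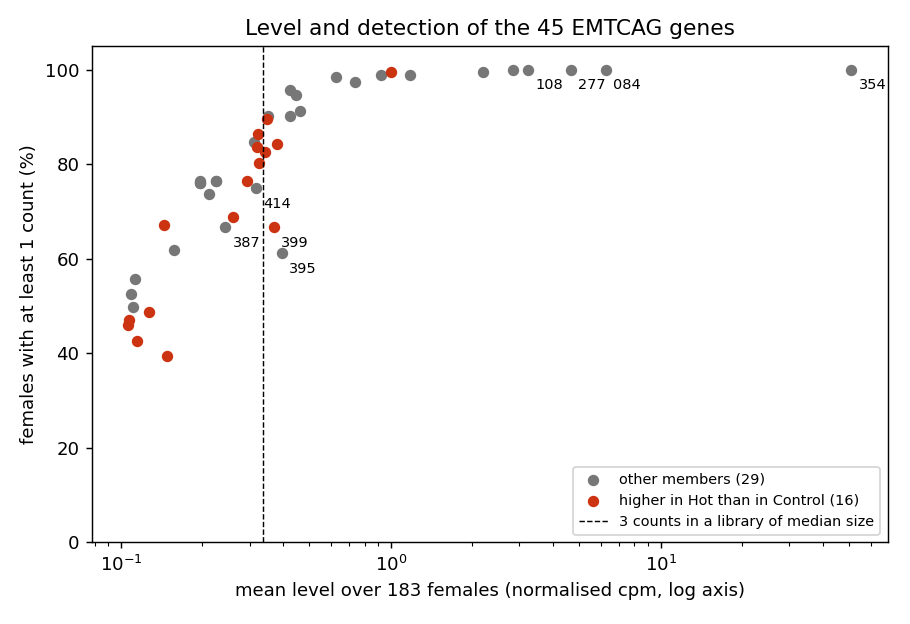
Mean normalised cpm over all females on a log axis (horizontal) against the percentage of females with at least 1 count (vertical), with a point for each of the 45 EMTCAG genes, coloured where the gene was higher in Hot than in Control. The dashed line marks 3 counts in a library of median size (0.337 cpm), numbers on points are the last digits of identifiers, and most genes lie below 1 cpm, where detection falls off, and EMTCAG00000000354 stands alone at a mean of 50.9 cpm.

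The level that admitted a gene was close to the values of several. Just inside it, EMTCAG00000000257 had 0.507 cpm in its fifth-highest female, EMTCAG00000000111 had 0.524 and EMTCAG00000000093 had 0.597. Just outside it, EMTCAG00000000322 and EMTCAG00000000205 both had 0.493, and EMTCAG00000000340 had 0.486. The genes on both sides of the line were alike in their reads, with 181 to 201 counts in all females inside and 144 to 227 outside. Of the other EMTCAG genes 191 had no read in any female, and 301 had reads but did not pass.

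Of the 45 genes 4 formed 2 pairs with the same count in every female. EMTCAG00000000142 and EMTCAG00000000069 both had 399 counts spread over 140 females, and EMTCAG00000000149 and EMTCAG00000000030 both had 321 counts over 139 females. The members of each pair stood in neighbouring rows of the table. Reads that fit either gene of a pair may have been assigned to both or split between them, so the 4 genes are uncertain as separate genes and the 45 genes hold 43 distinct profiles. No other genes tested had identical counts.

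The levels of EMTCAG00000000354 went along with those of 1 TC gene, TC005628. Over all females the Pearson correlation of log2 cpm was 0.82, whereas the next most similar TC gene reached 0.48. Within conditions it was 0.88 among Hot-Dry females, 0.85 for Control, 0.80 for Dry and 0.76 for Hot. The genes stood in neighbouring rows of the table, TC005628 at a mean of 121 cpm, and the ratio of EMTCAG00000000354 to TC005628 ran from 0.244 over a median of 0.421 to 0.606. Neither gene was differentially expressed (DE) in any comparison of conditions. Here and below, a gene was called DE at an adjusted p of 0.05 or less in edgeR's quasi-likelihood test with Benjamini-Hochberg adjustment over all genes tested. All these correlations are descriptions over females that shared families, and both genes of a pair were measured in the same library.

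**Figure D2:**
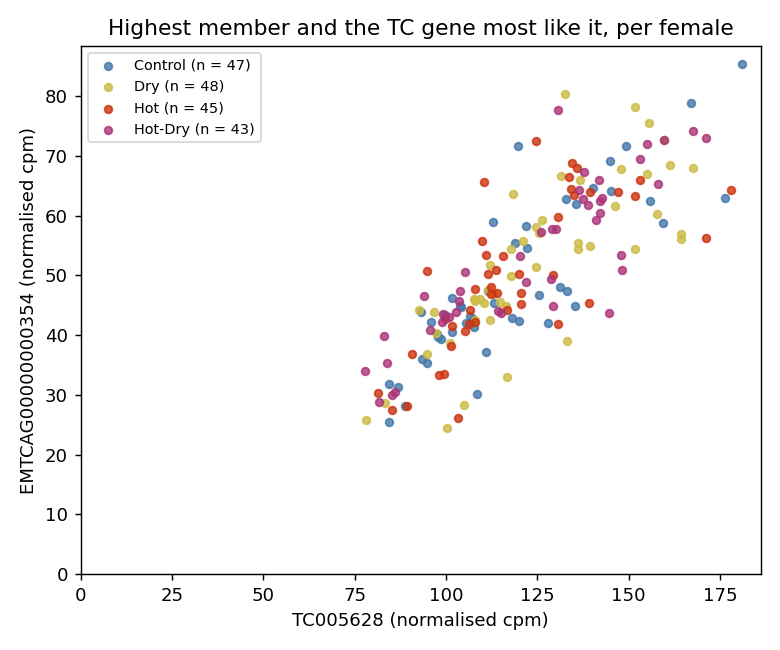
Level of EMTCAG00000000354 (vertical, cpm) against that of TC005628 (horizontal, cpm), with a point for each female, coloured by condition. The points of all 4 conditions follow 1 band, with r = 0.82 on the log2 scale.

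Among the EMTCAG genes themselves the most similar pair was EMTCAG00000000277 and EMTCAG00000000451, with r = 0.69. These genes also stood in neighbouring rows, and their r was 0.70, 0.68, 0.57 and 0.77 within Control, Dry, Hot and Hot-Dry. Both were most similar to the same TC gene, TC009871, with r of 0.66 and 0.53. The next pairs were EMTCAG00000000182 with EMTCAG00000000107 (0.58), EMTCAG00000000381 with EMTCAG00000000047 (0.56), EMTCAG00000000098 with EMTCAG00000000107 (0.52) and EMTCAG00000000393 with EMTCAG00000000107 (0.51). None of these stood near each other in the table.

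For the other high genes no single TC gene stood apart from the next. EMTCAG00000000084 was most similar to TC010626 (r = 0.62, next 0.55) and EMTCAG00000000260 to TC014911 (0.55, next 0.54). EMTCAG00000000006 went with TC008682 (0.49), EMTCAG00000000047 with TC011788 (0.47) and EMTCAG00000000497 with TC010640 (0.46). EMTCAG00000000255 reached 0.42 with TC006172, and EMTCAG00000000108 reached 0.39 with TC010772.

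No EMTCAG gene was DE in Dry compared with Control. EdgeR's quasi-likelihood test called 0 of the 45 genes, where it called 0.809% of all genes tested. At an unadjusted p under 0.05 it gave 3 genes, and DESeq2 called 0 with 2 under that limit. The smallest adjusted p was 0.388, for EMTCAG00000000179. On the log2 scale the median difference of the 45 genes was 0.01, against -0.02 for TC genes of the same level.

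In Hot compared with Control 17 EMTCAG genes were DE, of which 16 were higher in Hot and 1 was lower. This was 37.8% of the 45 genes, where 25.1% of all genes tested and 18.5% of TC genes of the same level were DE. Higher in Hot were 35.6% of the EMTCAG genes, where 12.9% of all genes tested and 12.0% of TC genes of the same level were higher. DE and lower in Hot was EMTCAG00000000277 alone, where 12.2% of all genes tested were lower. With family as a term in the model 16 genes were higher and 3 lower, the 2 added being EMTCAG00000000451 (edgeR adjusted p = 0.00784) and EMTCAG00000000099 (0.0465). With that term 1878 of all 12113 genes tested were higher and 1972 lower. The median log2 difference of the 45 genes was 0.29, against 0.07 for TC genes of the same level and -0.01 for all genes tested.

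Some of these genes passed the level only with the Hot females counted, so that a high value there could itself admit a gene. Without the Hot females 39 of the 45 genes passed. The 6 that passed only with them were EMTCAG00000000176, EMTCAG00000000100, EMTCAG00000000401, EMTCAG00000000093, EMTCAG00000000393 and EMTCAG00000000257, and the first 5 of these were among the 16 higher in Hot. Of the 39 others 11 were higher in Hot, which was 28.2%. Among all genes that passed without the Hot females 12.8% were higher in Hot, and among TC genes of the same level 11.4%.

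EMTCAG00000000107 had the smallest p of the genes higher in Hot. It ran from 0 over a median of 0.142 to 0.977 cpm in Control and from 0 over 0.460 to 4.59 in Hot, with 0.154 and 0.289 as medians in Dry and Hot-Dry. Reads were found in 36 of 47 Control females and 44 of 45 Hot females. The ranges overlapped, and the mean was higher in Hot in all 12 families. The fold was 3.12 (log2 difference 1.64 ± 0.26, SE, adjusted p = 1.19e-07, edgeR's quasi-likelihood test with Benjamini-Hochberg adjustment).

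EMTCAG00000000266 and EMTCAG00000000450 came next. EMTCAG00000000266 had a median of 0.180 cpm in Control and 0.451 in Hot, with highest values of 0.837 and 2.41. EMTCAG00000000450 had 0.216 and 0.437, with highest values of 0.837 and 1.59. Both had females without reads in both conditions, so the groups overlapped, and both had higher means in Hot in 10 of 12 families. The folds were 2.19 (log2 1.13 ± 0.24, edgeR adjusted p = 0.000124) and 2.09 (log2 1.06 ± 0.23, edgeR adjusted p = 0.000134).

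EMTCAG00000000401 and EMTCAG00000000399 depended more on single females or families. EMTCAG00000000401 had no reads in 29 of 47 Control females and a median of 0.112 cpm in Hot, with a highest female of 2.5, and its log2 difference was 1.39 ± 0.35 (edgeR adjusted p = 0.00119). It passed the level only in Hot females, 5 of them. EMTCAG00000000399 had medians of 0.106 and 0.232 cpm and highest values of 1.43 and 4.23, and its log2 difference was 1.46 ± 0.38 (edgeR adjusted p = 0.00167). In family 1077 its mean was 3.38 cpm in Hot and 0.349 in Control. Without that family the log2 difference was 0.77 and the adjusted p 0.135, so the call rested on it.

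The other 11 genes higher in Hot had log2 differences of 0.48 to 1.45. They were EMTCAG00000000100, EMTCAG00000000393, EMTCAG00000000128, EMTCAG00000000136, EMTCAG00000000176, EMTCAG00000000093, EMTCAG00000000182, EMTCAG00000000098, EMTCAG00000000006, EMTCAG00000000194 and EMTCAG00000000236. The calls of EMTCAG00000000006, EMTCAG00000000194 and EMTCAG00000000236 were the least steady. They held in 17 of 25, 16 of 24 and 14 of 24 alternatives, with edgeR adjusted p of up to 0.104, 0.121 and 0.282 without family 496, 1077 or 103, and none of the 3 held with counts summed for each family and condition. Among the 16 genes only EMTCAG00000000006 had a mean above 0.5 cpm. Single genes were higher in Hot in 8 to 12 of 12 families, and the 5 highest Hot females held 26.0% to 56.2% of the level of a gene over the Hot females.

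EMTCAG00000000277, the only gene called lower in Hot, was one of the higher genes and had reads in every female. It ran from 1.29 over a median of 4.52 to 13.0 cpm among Control females, from 2.68 over 5.67 to 18.3 among Dry females, from 0.757 over 3.02 to 10.4 for Hot, and from 0.735 over 3.06 to 8.87 for Hot-Dry. The medians of Hot and Hot-Dry were alike and below those of Control and Dry, while all 4 ranges overlapped. The log2 difference to Control was -0.45 ± 0.15 in Hot (edgeR adjusted p = 0.0155) and -0.47 ± 0.15 in Hot-Dry (edgeR adjusted p = 0.0107). Hot was higher than Control in 3 of 12 families. The call in Hot was lost without family 245 (adjusted p = 0.0660) and without family 348 (0.0643), and that in Hot-Dry without family 348 (0.122).

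**Figure D3:**
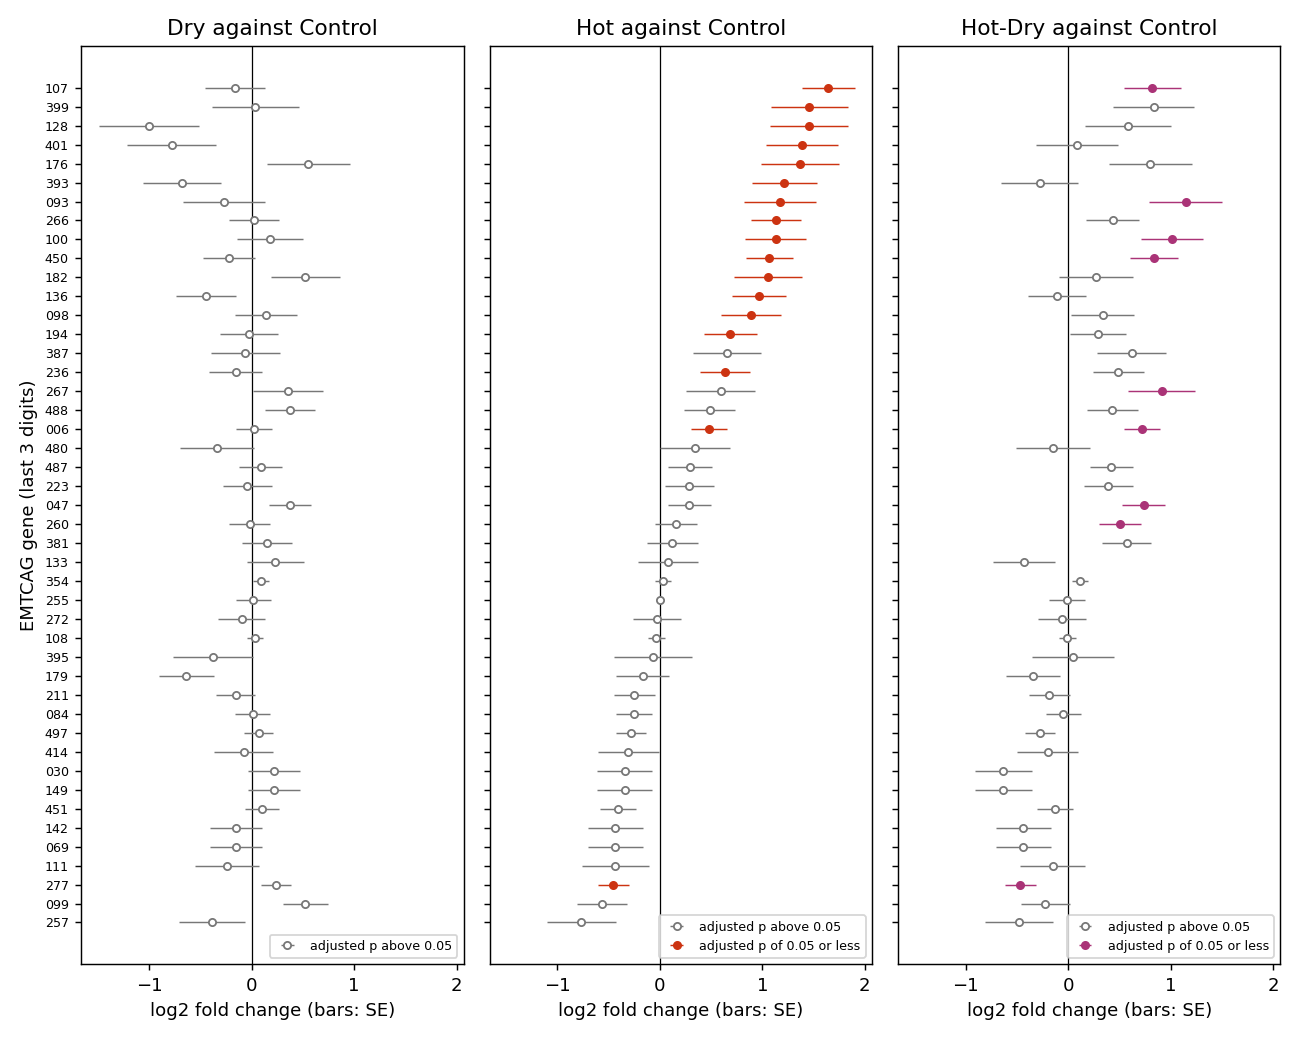
Log2 fold change of each EMTCAG gene (rows, named by the last 3 digits) against Control in Dry, Hot and Hot-Dry (panels), with bars of 1 SE and filled points where the gene was DE. Genes are ordered by the value in Hot, where 16 filled points lie on the higher side and 1, EMTCAG00000000277, on the lower side.

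The 16 genes higher in Hot were summed for each female to show how they lay together. The sum ran from 1.05 over a median of 2.86 to 9.53 cpm among Control females, from 1.11 over 2.68 to 7.27 among Dry females, from 1.60 over 6.44 to 22.2 for Hot, and from 1.72 over 5.17 to 10.9 for Hot-Dry. The groups overlapped, with a wide upper tail in Hot. The genes were chosen by the contrast of Hot and Control, so that this contrast is no further evidence, and the sum carries no test. The mean of the sum was higher in Hot than in Control in all 12 families, and higher in Hot-Dry than in Dry in 11 of 12.

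The upper tail in Hot was made up of the same females for several genes. The Hot female numbered 1 of family 103 had the highest sum, 22.2 cpm, and was among the 5 highest Hot females for 13 of the 16 genes. The Hot female numbered 1 of family 348 had a sum of 16.8 cpm and was among the 5 highest for 7. Their libraries held 11726544 and 11555005 counts. Without the female of family 103, an alternative chosen after seeing the data, 14 genes were DE in Hot, 12 higher and 2 lower. EMTCAG00000000194 and EMTCAG00000000236 were then no longer DE, EMTCAG00000000093 and EMTCAG00000000401 no longer passed the level, and EMTCAG00000000451 was then lower in Hot (edgeR adjusted p = 0.0307).

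**Figure D4:**
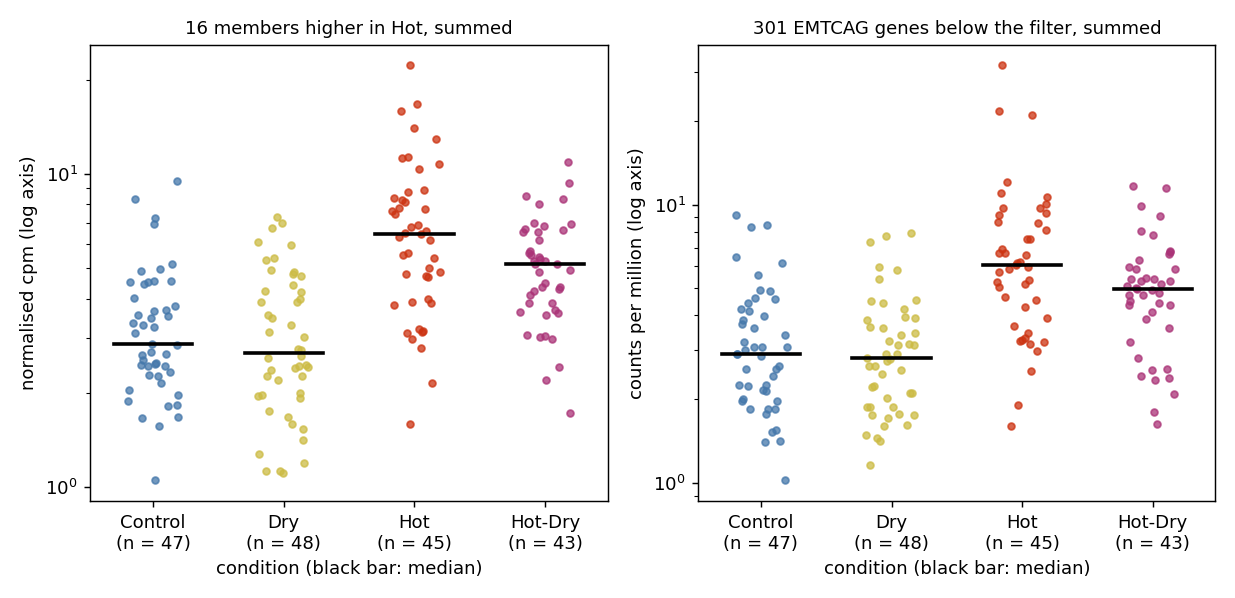
Summed level of the 16 EMTCAG genes that were higher in Hot and summed level of the 301 EMTCAG genes with reads below the level, with a point for each female by condition and a line at the median. Both sums have their highest medians in Hot (6.44 and 6.08 cpm) and overlap between conditions.

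The EMTCAG genes that did not pass showed a similar order of conditions. The counts of these 301 genes, summed for each female and divided by the library total, had medians of 2.92 cpm among Control females, 2.81 for Dry, 6.08 for Hot and 5.0 for Hot-Dry. They ran from 1.02 to 9.20 in Control and from 1.60 to 31.6 in Hot, so the groups overlapped. The mean in Hot was 2.15 times that in Control, and Hot was higher in 11 of 12 families. The Hot females numbered 1 of families 103, 432 and 348 had the highest sums, 31.6, 21.7 and 20.9 cpm. The same females had sums of the 16 genes of 22.2, 15.9 and 16.8 cpm, in the upper tail there as well. The 3840 TC genes with reads that did not pass had a Hot mean 1.07 times that of Control. Of these 301 genes a female had reads in a median of 41 for Hot, 32 for Hot-Dry, 20 for Control and 19 for Dry, while of the TC genes that did not pass it had reads in 561, 589, 532 and 585.5.

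Across females the sum of the 16 genes went along with the sum of the 301 genes. The Pearson correlation of their log2 values over all females was 0.84, and within conditions it was 0.92 among Hot females, 0.79 for Hot-Dry, 0.71 for Control and 0.67 for Dry. With the summed TC genes below the level it was 0.42 over all females. Within Control, Dry, Hot and Hot-Dry it was then 0.34, 0.36, 0.49 and 0.33. With the library total it was 0.17 over all females, and 0.16, 0.48, 0.09 and 0.28 within the conditions in that order. Both sums came from the same libraries and share their depth, and the part of sequencing depth or RNA quality in them was not tested. Single genes went along less closely. The 120 pairs among the 16 genes had a median r of 0.26, and of 0.20 once condition means were taken off.

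In Hot-Dry compared with Control 9 EMTCAG genes were DE, 8 higher and 1 lower. This was 20.0% of the 45 genes, where 30.7% of all genes tested were DE (15.7% higher and 15.1% lower) and 21.5% of TC genes of the same level. The 45 genes thus lay near the background here. The median log2 difference was 0.09, against 0.07 for TC genes of the same level. Both contrasts share the Control females, and their calls are set side by side without a test.

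EMTCAG00000000006 had the smallest p in Hot-Dry. It ran from 0 over a median of 0.733 to 2.07 cpm in Control and from 0.145 over 1.24 to 3.22 in Hot-Dry, and had medians of 0.719 in Dry and 0.949 in Hot. Its fold was 1.65 (log2 0.72 ± 0.17, edgeR adjusted p = 0.000537). EMTCAG00000000047 had medians of 0.885 in Control and 1.17 in Hot-Dry, with a highest Hot-Dry female of 7.40 cpm, and a log2 difference of 0.74 ± 0.21 (edgeR adjusted p = 0.00358). The groups overlapped for both genes.

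EMTCAG00000000450 was DE in both hot conditions, with a median of 0.386 cpm and reads in 41 of 43 Hot-Dry females, against 33 of 47 in Control. Its log2 difference in Hot-Dry was 0.84 ± 0.23 (edgeR adjusted p = 0.00311). EMTCAG00000000100 and EMTCAG00000000093 rose by 1.02 ± 0.30 and 1.15 ± 0.35 on the log2 scale, from means of 0.0914 and 0.0639 cpm to 0.184 and 0.161. These are values of a read or less in most females. EMTCAG00000000093 exceeded 0.5 cpm in 5 females, of which 2 were Hot. Its highest values were 0.418 cpm in Control and 0.281 in Dry, so it passed the level only with the Hot-Dry females. A high value in Hot-Dry could thus itself admit this gene, and whether others passed in the same way was not tested. The remaining genes higher in Hot-Dry were EMTCAG00000000107, EMTCAG00000000267 and EMTCAG00000000260. Without family 710, whose Hot-Dry female numbered 3 had 7.81 cpm of EMTCAG00000000260, that gene had an edgeR adjusted p of 0.388, and it was also not called with summed counts (0.128). EMTCAG00000000267 was not called without family 348, 710 or 1077, nor EMTCAG00000000107 without family 432.

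Of the 16 genes higher in Hot 5 were also DE upwards in Hot-Dry, and 15 had a smaller log2 difference there than in Hot. Their differences in Hot-Dry ran from -0.28 over a median of 0.54 to 1.15, and in Hot from 0.48 over 1.13 to 1.64. Since the genes were chosen by their values in Hot, a smaller value elsewhere is a description. The same shares among all genes higher in Hot, or among TC genes of the same level, were not computed. These counts therefore do not mark a trait of the EMTCAG genes.

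In the direct comparison of Hot-Dry with Hot 4 EMTCAG genes were DE and all 4 were lower in Hot-Dry. This was 8.89% of the 45 genes, where 2.28% of all genes tested were DE (0.991% higher and 1.29% lower) and 1.36% of TC genes of the same level. The genes, named after their values were seen, were EMTCAG00000000393 (log2 -1.49 ± 0.34, edgeR adjusted p = 0.00275), EMTCAG00000000136 (-1.08 ± 0.27, 0.0108), EMTCAG00000000401 (-1.30 ± 0.35, 0.0196) and EMTCAG00000000107 (-0.82 ± 0.24, 0.0435). All 4 were among the 16 genes higher in Hot, and 2 of them, EMTCAG00000000393 and EMTCAG00000000401, passed the level only with the Hot females. Both contrasts share the Hot females, so high values there bear on both calls, and the overlap is no further evidence. The share of all genes higher in Hot that were lower in Hot-Dry was not computed. Of the 39 genes that passed without the Hot females 2 were lower in Hot-Dry, which was 5.13%, where 1.28% of all such genes and 0.637% of TC genes of the same level were lower. EMTCAG00000000393 ran from 0 over a median of 0.203 to 1.13 cpm in Hot and from 0 over 0.0739 to 0.402 in Hot-Dry. The counts were few and the calls frail. Summing the counts of each family and condition left 0 of the 4, leaving out family 103 left 1, and leaving out its Hot female numbered 1 left 2.

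In Hot-Dry compared with Dry 12 EMTCAG genes were DE, 8 higher and 4 lower. This was 26.7% of the 45 genes, where 32.3% of all genes tested were DE (16.5% higher and 15.8% lower) and 23.0% of TC genes of the same level. Lower were EMTCAG00000000277 (log2 -0.71 ± 0.15, edgeR adjusted p = 6.09e-05), EMTCAG00000000099 (-0.75 ± 0.23, 0.00728) and the identical pair EMTCAG00000000149 and EMTCAG00000000030 (-0.85 ± 0.27, 0.0102), which count as 1 profile. These genes were named after their values were seen. The 8 higher genes included EMTCAG00000000450, EMTCAG00000000006, EMTCAG00000000093 and EMTCAG00000000107. Of these EMTCAG00000000093 passed the level only with the Hot-Dry females.

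No EMTCAG gene showed an interaction of heat and drought, which asks whether the difference between Hot-Dry and Dry departs from that between Hot and Control. EdgeR's quasi-likelihood test called 0 of the 45 genes, where it called 0.00826% of all genes tested, which was 1 gene. At an unadjusted p under 0.05 it gave 3 EMTCAG genes, and DESeq2 called 0 with 2 under that limit.

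Families differed in most of the EMTCAG genes. With condition in the model, 41 of the 45 genes were DE among the 12 families, which was 91.1%, where 92.7% of all genes tested and 71.8% of TC genes of the same level were DE. With the counts of each family and condition summed, so that females of 1 vial count once, 29 of the 45 genes were DE among families, where 77.0% of all genes tested were. EMTCAG00000000497, EMTCAG00000000047 and EMTCAG00000000006 were among the 12 that then lost the call. The 4 genes without a call were EMTCAG00000000255, EMTCAG00000000488 and the identical pair EMTCAG00000000142 and EMTCAG00000000069, with adjusted p of 0.164 to 0.208 in edgeR's quasi-likelihood test. In the fit over single females the share of the EMTCAG genes was thus close to that of the whole table. It was also above that of TC genes of their level. With summed counts the share, 29 of 45, lay below the 77.0% of the whole table. The share of TC genes of their level was not computed for summed counts. EMTCAG00000000255 had reads in 178 females.

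The genes with the smallest p among families were EMTCAG00000000399 (edgeR adjusted p = 1.47e-15), EMTCAG00000000277 (3.45e-15), EMTCAG00000000395 (4.89e-14), EMTCAG00000000387 (4.31e-13) and EMTCAG00000000414 (1.06e-12). EMTCAG00000000399 had a mean of 1.18 cpm in family 1077 and 0.0410 in family 638, with a median of 0.159 over families. EMTCAG00000000395 had 1.47 cpm in family 103 and 0.0464 in family 638, with a median of 0.280. EMTCAG00000000387 ran from 0.0390 in family 710 to 0.670 in family 348. These 3 genes shared a pattern of a few high families over many low ones. EMTCAG00000000277 had a smaller spread over a higher base, from 2.95 cpm in family 799 to 7.29 in family 348. For comparison, EMTCAG00000000354 ran from 41.0 cpm in family 1005 to 64.1 in family 103.

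EMTCAG00000000414 was at 0 in a whole family. None of the 15 females of family 245 had a read of it, whereas 137 of the 168 other females did, and every female of families 103, 348, 496 and 1077 did. The highest family mean was 0.726 cpm, in family 1077. The libraries of family 245 held 131598046 counts together, in which 3 counts correspond to 0.0228 cpm, and the mean of the other females was 0.345 cpm. The family was thus at least 15.1-fold lower than the others by that floor. The 15 females came from all 4 conditions and hence from several vials.

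Other genes came close to this pattern. EMTCAG00000000395 and EMTCAG00000000176 both had reads in 2 of 16 females of family 638 and in 15 of 16 of family 103. EMTCAG00000000098 had reads in 2 of 13 females of family 293 and 15 of 16 of family 103, and EMTCAG00000000399 in 3 of 16 of family 638 and 15 of 16 of family 432. EMTCAG00000000128 also had no reads in family 245, but no family had reads of it in every female. With EMTCAG00000000414 it made 2 of 45 genes at 0 in a whole family, or 4.44%, against 1.58% of TC genes of the same level. The range between families in the share of females with reads had a median of 38.5 percentage points over the EMTCAG genes and 26.7 over TC genes of the same level.

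**Figure D5:**
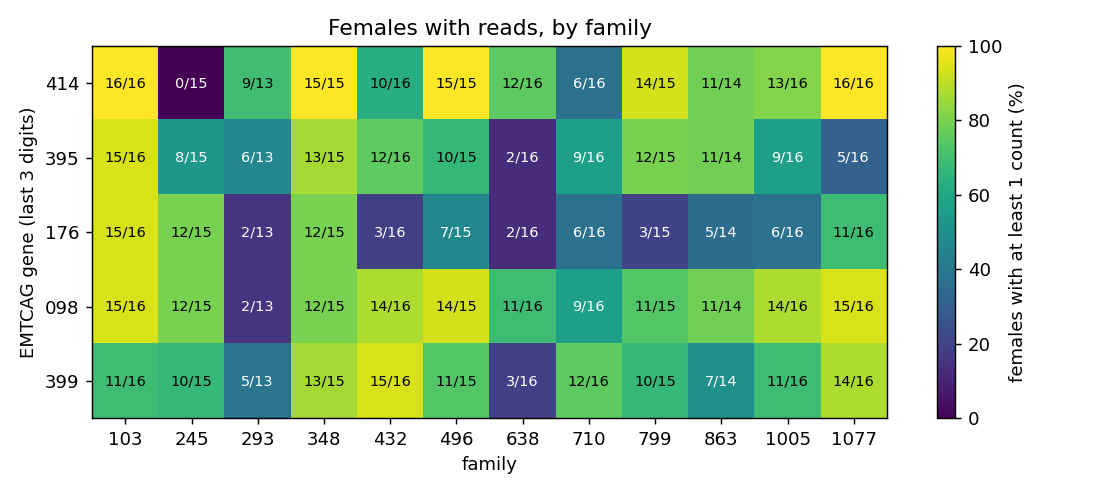
Percentage of females with at least 1 count (colour scale) for 5 EMTCAG genes with the widest range among families (rows; the fifth place was shared by 3 genes at 75.0 percentage points, of which the one with the highest mean is shown) in each of the 12 families (columns), with the number of females in each cell. EMTCAG00000000414 is at 0% in family 245 and at 100% in 4 families.

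The same few families were high for many genes. Families 348, 103 and 1077 had the highest family mean for 13, 12 and 9 of the 45 genes, or 34 together, which was 75.6%. The count of family 348 holds the identical pair EMTCAG00000000142 and EMTCAG00000000069, which is 1 profile. The means of family 103 hold its Hot female numbered 1, who was among the 5 highest Hot females for 13 of the 16 genes higher in Hot. The ranking of families without single females was not computed. These 3 families, picked after their values were seen, had the highest mean for 36.3% of TC genes of the same level. Family 103 alone had the highest mean for 26.7% of EMTCAG genes and 8.77% of TC genes of the same level. Families 293, 638, 799 and 1005 were highest for 0 of the 45 genes.

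The response to the conditions differed among families for 9 EMTCAG genes. This was 20.0% of the 45 genes, where 61.4% of all genes tested and 17.9% of TC genes of the same level were called. EMTCAG00000000084 had the smallest p (edgeR adjusted p = 1.76e-05). In family 496 its mean was 21.1 cpm in Control and 16.7 in Dry, but 4.32 in Hot and 4.36 in Hot-Dry. The median over all families and conditions was 5.12 cpm, and the 3 highest females all came from family 496 in Control or Dry. Without family 496 the gene was still called, with an adjusted p of 0.00788.

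The values of 3 further genes of the 9 show how far single families went. EMTCAG00000000399 had 3.38 cpm in the Hot females of family 1077, against a median of 0.177 over all families and conditions. EMTCAG00000000182 had 1.20 cpm in the Dry females of family 348, against 0.174. EMTCAG00000000277 had 10.0 cpm in Control and 5.72 in Hot in family 348. As each family had 1 vial in a condition, a family and its vial cannot be told apart in these values.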

How the data were processed

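The authors deposited 1 table of raw read counts per gene for each female. Per the processing notes of the submitters and the methods of the study, single-end reads of a LEXOGEN mRNA kit were aligned with STAR 2.5 to the Tcas3 genome and counted with featureCounts on an Ensembl Metazoa annotation. The handling of reads that fit several genes, and of strand, is not given in the sources used here, so genes that share sequence or overlap on opposite strands are uncertain.

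The counts were analysed in R 4.3.3 with edgeR 4.0.16 (limma 3.58.1 loaded with it), with TMM normalisation, a level of over 0.5 cpm reached by 5 or more females, and quasi-likelihood tests with Benjamini-Hochberg adjustment over all 12113 genes and a threshold of 0.05. DESeq2 1.42.0 was an alternative. Condition means were fitted over all females. Families, read from the first number of a sample title, were tested with condition in the model, and the response of families with a mean for each family and condition. Log2 cpm used a prior count of 2. Descriptive values were computed in Python 3.11.15 with numpy 2.4.6 and pandas 2.3.3. The code was tested on simulated data. At the median depth 3 counts are 0.337 cpm, which covers counting error only.

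Genes were named by rule, namely the 10 highest, up to 5 in each direction DE against Control, the 5 with the smallest p among families, the 5 with the widest range of detection among families, 3 on each side of the level, the most similar TC gene of each high gene and the 5 most similar pairs. Genes outside the rule complete a short list of calls. The genes and lists were chosen with earlier results of these data known. Alternatives covered normalisation, filter, test, block, summed counts, small libraries, identical rows, class width, the number of counts that make a detection, and leaving out each family.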

Additional observations from a re-analysis of the deposited data

Results flagged for a closer look

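The response to the conditions differed among families for 9 of the EMTCAG genes in edgeR's quasi-likelihood test with Benjamini-Hochberg adjustment. The adjusted p was 1.76e-05 for EMTCAG00000000084, 0.00475 for EMTCAG00000000182, 0.00551 for EMTCAG00000000451, 0.00560 for EMTCAG00000000047, 0.0101 for EMTCAG00000000399, 0.0228 for EMTCAG00000000497, 0.0310 for EMTCAG00000000272, 0.0343 for EMTCAG00000000277 and 0.0443 for EMTCAG00000000393. For EMTCAG00000000451 Hot was above Control in 4 families and below it in the others, with the largest rise of 1.30 cpm in family 496, while family 710 fell by 1.86 cpm. For EMTCAG00000000497 family 496 rose by 2.60 cpm in Hot and family 348 fell by 2.28 cpm. EMTCAG00000000047 was highest in the Hot-Dry females of family 1077, at 3.05 cpm, and EMTCAG00000000272 in the Hot females of family 1005, at 1.07 cpm. EMTCAG00000000084, EMTCAG00000000182, EMTCAG00000000451 and EMTCAG00000000047 were called in every alternative that tested them.

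The 301 EMTCAG genes with reads below the level entered no test in the main fit and were tested singly with no filter. Their sum in Hot had a median of 6.08 cpm, above the Control median of 2.92, and was not tested.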

How the results depend on the processing

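No alternative turned the direction of a DE gene named by the rule. The interaction of heat and drought and the comparison of Dry with Control gave 0 calls in all 25 alternatives. With a stricter filter, above 1 cpm in at least 20 females, only 13 EMTCAG genes were tested. Of these 2 were DE in Hot, 4 in Hot-Dry, 4 in Hot-Dry against Dry and 0 in Hot-Dry against Hot. Among families 12 were DE, and 5 for the response of families. Of all 11013 genes tested 3473 were DE in Hot-Dry, 3640 in Hot-Dry against Dry and 276 in Hot-Dry against Hot. Among families 10528 of all genes were DE, and 7488 for the response of families. The 2 calls in Hot were 1 higher and 1 lower, where 2789 of all 11013 genes tested were DE, 1558 of them higher. The larger share of DE genes in Hot was thus not seen among these 13 genes. With no filter 346 were tested, of which 67 were DE in Hot (66 of them higher) and 25 in Hot-Dry. In Hot-Dry 32 were DE against Dry and 7 against Hot, with 128 among families. Of all 16254 genes tested with no filter 2921 were DE in Hot, 1629 of them higher. Of the same 16254 genes 3627 were DE in Hot-Dry, 3800 in Hot-Dry against Dry, 265 in Hot-Dry against Hot and 11993 among families. Counts summed for each family and condition gave 15 in Hot, 8 in Hot-Dry, 10 in Hot-Dry against Dry and 0 in Hot-Dry against Hot. Among families they gave 29. Over all 12113 genes summed counts gave 1960 in Hot, 2761 in Hot-Dry and 3053 in Hot-Dry against Dry. They gave 46 in Hot-Dry against Hot and 9322 among families. Without the Hot female numbered 1 of family 103 there were 14 in Hot, 8 in Hot-Dry and 11 in Hot-Dry against Dry. In Hot-Dry against Hot there were then 2, and among families 38. Of all 12102 genes tested without that female 3039 were DE in Hot, 3720 in Hot-Dry and 3914 in Hot-Dry against Dry. In Hot-Dry against Hot 233 of all genes were DE, and among families 11205. Leaving out each family in turn gave 12 to 17 in Hot, 7 to 12 in Hot-Dry, 10 to 13 in Hot-Dry against Dry, 1 to 4 in Hot-Dry against Hot (1 without family 103, and 2 without 348, 432 or 1077), 34 to 41 among families and 5 to 10 for the response of families (5 without 799). Over all genes tested these fits gave 2385 to 3246 in Hot, 3288 to 3729 in Hot-Dry and 3312 to 4040 in Hot-Dry against Dry. They gave 152 to 358 in Hot-Dry against Hot, 11009 to 11170 among families and 5097 to 7579 for the response of families. The filters change which genes are tested, and the cause of the other shifts was not tested.

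Females with the same number in 2 conditions were on average no more alike than females of the same family. Of 261 pairs with the same number 193 correlated above 0.1, with a mean r of 0.19. The 787 pairs of the same family had a mean r of 0.20. Pairs with the same number are full sibs as well, so the comparison cannot exclude another pairing between them. With the replicate block 0 genes were DE in Dry, 17 in Hot, 10 in Hot-Dry, 12 in Hot-Dry against Dry, 4 in Hot-Dry against Hot and 0 for the interaction. The 17 in Hot were 14 higher and 3 lower, without EMTCAG00000000006 and EMTCAG00000000236 and with EMTCAG00000000099 and EMTCAG00000000451. In Hot-Dry EMTCAG00000000260 was lost, and against Hot EMTCAG00000000266 took the place of EMTCAG00000000401.

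A gene of 0.322 cpm has about the floor of 3 counts in a library of median size, and a missing call in such a gene does not show that conditions were alike. The alternatives without the Hot female of family 103 and with identical rows kept once were chosen after seeing the data.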
